A study of Citrus maxima and Citrus sinensis with 4 samples.

Results

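Of the 699 precursor loci listed for *Citrus* leaf miRNAs, 161 gave a mature sequence of 24 nt and carried the name of a known plant miRNA from miRBase, and these loci are described here. They were taken by their length and name, leaving out 17 further 24 nt loci named after well-known conserved families or other numbers treated as families of their own. The values come from 4 leaf small RNA libraries. These were B-toxic *C. grandis* (sour pummelo, labelled with the organism name Citrus maxima, intolerant to boron toxicity), control *C. grandis*, B-toxic *C. sinensis* (the cultivar Xuegan, tolerant) and control *C. sinensis*. B-toxic seedlings received 400 μM and control seedlings 10 μM boric acid in nutrient solution for 15 weeks, all in pots of sand in a greenhouse, and mature leaves were sampled. Each library was made from the mixed RNA of 5 replicates, so that there was 1 library per condition and no replicate of any condition. A test on the reads of 2 libraries therefore compared those libraries and not the conditions, and intervals cover counting error only. They may be too narrow even for that, since PCR copies of a molecule cannot be told apart. The library totals were 325441, 373890, 243277 and 346600 mature reads in B-toxic *C. grandis*, control *C. grandis*, B-toxic *C. sinensis* and control *C. sinensis*, and read counts scaled to these totals are given as RPM (reads per 1000000 mature reads). Where a library had 0 reads of a sequence, up to 3 reads could have been missed, which corresponds to 9.22, 8.02, 12.3 and 8.66 RPM in these libraries.

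Plant miRNAs are cut from the stem of a hairpin transcript, mostly by DICER-LIKE1, are typically 21 nt long, often start with U and are loaded into ARGONAUTE1, which cuts or represses matching mRNAs. Small RNAs of 24 nt are mostly made by DICER-LIKE3 from double-stranded RNA of transposons and repeats, often start with A, are loaded into ARGONAUTE4 and its relatives, and guide DNA methylation. Some plant miRNA genes also give 24 nt products. In a miRBase name the first letters stand for the species in which the miRNA was found, such as ath for *Arabidopsis thaliana*, mtr for *Medicago truncatula*, osa for rice, bdi for *Brachypodium distachyon*, gma for soybean, ghr for cotton, lja for *Lotus japonicus*, ppt for the moss *Physcomitrella patens* and cre for the green alga *Chlamydomonas reinhardtii*, and 5p or 3p stands for the arm of the hairpin.

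The 161 loci held 129 distinct mature sequences under 111 names with 106 miRNA numbers. The names came from 22 species, with 19 names from *M. truncatula*, 15 from *B. distachyon*, 14 from *A. thaliana*, 13 from rice, 11 from soybean, 6 from the moss and 5 from the green alga. The 6 most abundant sequences are shown first because they carried 41.8% of the reads with each sequence counted once. In these and all other sequences below, bases 2 to 8 from the 5′ end, the seed, are in capitals.
ath-miR405a: aUGAGUUGuaaucugagcaauagu
ghr-miR7495a: gUACUUUAgccgugagggggacgu
osa-miR810b.2: gAGUGAUUugaagauaaaugaagu
ppt-miR477a-3p: aGAAGCCUgagagaaagcugagag
ath-miR775: aUCGAUGUgcggaucuaagacgga
ppt-miR537a: uUGAGGUGcuguagcuuuuaagcu

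Sequences with the same name shared their seed in every pair, and many differed widely beyond it. The following sequences of 5 names are shown because they make this visible.
mtr-miR2622, 2 loci: uUUGUGUGguucacaugagggaug
mtr-miR2622, 3 loci: aUUGUGUGaugguuaggaggcgug
mtr-miR2622, 1 locus: uUUGUGUGugugauugagauucgu
hvu-miR6182, first sequence: aGAGUGUGaaccgaacuugaacug
hvu-miR6182, second sequence: aGAGUGUGgaauagaaauuagaau
mtr-miR2089-3p, first sequence: uGGAUUGGauuuugcggauuggau
mtr-miR2089-3p, second sequence: uGGAUUGGauauggauuuacuucu
ghr-miR7495a, at a second locus: aUACUUUAuuggacuauagucgug
bdi-miR7711-5p.4, first sequence: aCUGAAUUcuuuaaggacuguuug
bdi-miR7711-5p.4, second sequence: uCUGAAUUuuugugcgacgggugc

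Bases 2 to 8 were the same in 23 of 23 pairs of distinct member sequences under the same name. They were the same in 0 of 8233 pairs under different names. Shifting the window to bases 1 to 7 left 17 of the 23 pairs identical (73.9%), and bases 9 to 15 were identical in 2 (8.70%). From base 9 onward the median identity was 50% for pairs under the same name, against 25% for pairs under different names. Each of the 111 names thus went with 1 seed and each of the 111 seeds with 1 name. Only 14 of the names had more than 1 member sequence, and the others could not have had more than 1 seed. The loci were taken by name and not by seed, but since names and seeds went one to one, the choice by name was also a choice by seed. Identity at bases 2 to 8 may therefore restate how the names were given and is a description. How they were given was not tested.

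Over the names of all lengths in the table, 83 of 85 same-name pairs were identical at bases 2 to 8. The exceptions were the pairs of the 19 nt bra-miR5717 sequence with the 24 nt ones. Of 50955 pairs under different names, 1 shared these bases, namely the same 19 nt sequence and ath-miR159a. None of the 312 loci without a name carried the seed of a named locus (0 loci). The mismatch column of the deposited table was 0 at every locus, and the miRBase sequences themselves were not used here, so how far each 24 nt sequence matches its namesake beyond the seed was not tested.

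**Figure D1:**
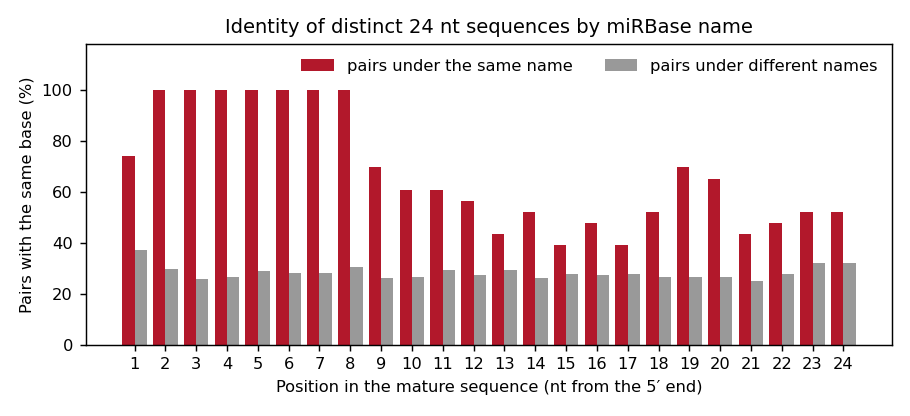
Share of pairs of distinct 24 nt sequences (%) with the same base at each position from the 5′ end, for 23 pairs under the same name (red) and 8233 pairs under different names (grey). Positions 2 to 8 stand at 100% for pairs under the same name and all other positions lie below 75%.

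More than 1 member sequence stood under 14 names, with 32 sequences in all, namely ahy-miR3509-3p, bdi-miR5063, bdi-miR7711-5p.4, bra-miR5717, ghr-miR7495a, hvu-miR6182, lja-miR7528, mtr-miR2089-3p, mtr-miR2622, mtr-miR4414a-3p, mtr-miR7699-5p, ppt-miR1023c-3p, ptc-miR7816 and vvi-miR3637-5p. Of the member names, 9 were also given to sequences of other lengths. The name osa-miR5521, for example, chosen after its values were seen, stood for an 18 nt sequence with 113 reads and a 24 nt sequence with 10 reads. Sequences under one name could differ widely in abundance. The ghr-miR7495a sequences above had 743 reads and 8 reads over the 4 libraries.

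A few groups resembled each other along their whole length and across names. The mtr-miR4414a-3p and ahy-miR3509-3p sequences form 1 such group and are shown with an unnamed 24 nt sequence of the same kind, which started 5 bases further on.
mtr-miR4414a-3p, 3 loci: aUCCAACGgcuagaugcaacugug
mtr-miR4414a-3p, 2 loci: aUCCAACGgcuggaugcaacggug
mtr-miR4414a-3p, 1 locus: aUCCAACGgcuagguacaacggug
ahy-miR3509-3p, first sequence: aUCUAACGgcuggauguaacugug
ahy-miR3509-3p, second sequence: aUCUAACGgcugaaugcaacugug
unnamed: aCGGCUGGaugcaacuguggcacg

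Counting positions from 1 at the 5′ end, the first mtr-miR4414a-3p sequence and the first ahy-miR3509-3p sequence differed at C4U, A12G and C17U. A difference at base 4 thus separated the 2 names. The unnamed sequence overlapped the first one by 19 bases with a difference at A12G. It had 2197, 2100, 96 and 85 reads in B-toxic *C. grandis*, control *C. grandis*, B-toxic *C. sinensis* and control *C. sinensis*. The first mtr-miR4414a-3p sequence had 115, 136, 43 and 71 reads in the same libraries at 1 of its loci, and the second ahy-miR3509-3p sequence had 6, 3, 35 and 39. These near copies thus differed in which species held more reads.

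The abundant ghr-miR7495a sequence stood in a similar group with unnamed sequences.
ghr-miR7495a: gUACUUUAgccgugagggggacgu
unnamed, first: gUACUGUAgccgugagggggacgc
unnamed, second: gUACUGUAgcugugagggggacgu

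The first unnamed sequence differed from ghr-miR7495a at U6G and U24C, and the second at U6G and C11U. The change at base 6 lies in the seed, and both unnamed sequences were more abundant than the named one. The first had 539, 711, 2924 and 3281 reads in B-toxic *C. grandis*, control *C. grandis*, B-toxic *C. sinensis* and control *C. sinensis*, and the second had 15, 32, 5944 and 3953. The ghr-miR7495a sequence had 25 and 22 reads in B-toxic and control *C. grandis* and 743 over all 4 libraries. All of these sequences had more reads in both *C. sinensis* libraries than in either *C. grandis* library.

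In all, 26 of the 129 member sequences had a near copy elsewhere in the table, meaning an overlap of at least 18 bases with at most 3 mismatches. For 13 of them a near copy had no name, for 13 a near copy had another name and for 14 the same name. Of 16 pairs with an unnamed near copy, the unnamed one had more reads in 10. These pairs are not independent, since the unnamed sequence shown with mtr-miR4414a-3p and ahy-miR3509-3p stands in several of the 10. The sequences named bdi-miR7711-3p.4 and ppt-miR1023c-3p shared 20 bases with no mismatch and were shifted by 4 bases, which gave them different seeds and names. These examples were chosen after their values were seen.
bdi-miR7711-3p.4: aAUCCUAGgauugggaguguggag
ppt-miR1023c-3p: uGGGAAUCcuaggauugggagugu

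Member sequences were also found inside precursors of other loci. The ghr-miR7495a sequence was the reverse complement of a stretch in the precursor of gma-miR5767, and the gma-miR5767 sequence was the reverse complement of a stretch in that of ghr-miR7495a. The ghr-miR7495a precursor and the reverse complement of the gma-miR5767 precursor were 94.7% identical. The ghr-miR7495a locus had 743 mature reads and the gma-miR5767 locus 78.

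More than 1 locus was listed for 20 sequences, 52 loci in all, and the other 109 sequences at 1 locus. Of the 20, 18 lay on more than 1 scaffold of the *C. clementina* genome. The sequence named mtr-miR2671j was listed at 6 loci, aly-miR173a-3p and ath-miR5012 at 4 each, and mtr-miR2622, mtr-miR4414a-3p, mtr-miR7700-5p and osa-miR2094-3p had a sequence at 3. These are shown because they make up the most repeated members.
mtr-miR2671j: uUAAAAGUuauauuugaugacggu
aly-miR173a-3p: gAUUCUCUcaaguaauucugacgg
ath-miR5012: cUUUACUGacuuuagaauaguguc
mtr-miR7700-5p: uUGGAGUGacuauuuuuauugggu
osa-miR2094-3p: aAGAGCUGaugaucguggacgaau

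In *Arabidopsis* miR173 starts the production of trans-acting siRNAs from TAS1 and TAS2 transcripts, and its 3p name stands for the other strand of the duplex. The aly-miR173a-3p sequence had at most 212 reads at its 4 loci. Their precursors were 43.9 to 64.3% identical to each other, so the sequence sat in different surroundings. The 3 precursors with osa-miR2094-3p were 96.5 to 98.3% identical, and the sequence had 8 reads at each. Counts were equal at all loci of a sequence for 13 of the 20 sequences and unequal for 7, with a largest ratio of 1.33 between loci. Reads of repeated sequences were therefore mostly counted at each locus, and loci of 1 sequence are not independent.

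The member loci carried 13075 mature reads, or 11136 with each sequence counted once. The median was 17 reads per locus over the 4 libraries, from 1 to 1489, with at least 10 reads at 106 loci and at least 100 at 29. They held 1.11%, 1.19%, 1.00% and 0.747% of the mature reads in B-toxic *C. grandis*, control *C. grandis*, B-toxic *C. sinensis* and control *C. sinensis*. Exact binomial 95% intervals of these shares were 1.07 to 1.15%, 1.15 to 1.22%, 0.964 to 1.04% and 0.719 to 0.776%, and are too narrow where reads were counted at several loci. The share was lowest in control *C. sinensis*. In whole leaves, fewer cells of a type and less RNA per cell cannot be told apart. The 176 unnamed 24 nt loci held 10.0%, 9.92%, 7.92% and 5.18% in the same libraries, and the 52 loci of 21 nt from the conserved families left out above held 24.6%, 28.5%, 16.9% and 21.8%.

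Reads were found at 142, 135, 137 and 133 of the 161 loci in the 4 libraries. Of these loci, 111 had reads in every library and 137 in both species. The rank order of the read counts was closer within a species than between species, as a description over 161 loci that share their libraries and sequences. For the pair of *C. grandis* libraries Spearman's rho reached 0.836 and for the pair of *C. sinensis* libraries 0.870, against 0.609 to 0.694 for libraries of different species. Over all loci of the table the same pattern was seen, with 0.92 within each species and 0.75 to 0.79 between species, so it was not particular to the members.

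The most abundant sequence was ath-miR405a, named after an *Arabidopsis* family related to transposons. It had 464, 562, 260 and 203 reads in B-toxic *C. grandis*, control *C. grandis*, B-toxic *C. sinensis* and control *C. sinensis*, or 1426, 1503, 1069 and 586 RPM. It was lowest in control *C. sinensis*, and the libraries of the other species both lay above those of *C. sinensis*. The osa-miR810b.2 sequence had 888, 647, 378 and 225 RPM in the same libraries. The ppt-miR477a-3p sequence had 688, 460, 497 and 389 RPM, so that the species overlapped. The ath-miR775 sequence, named after the *Arabidopsis* regulator of the galactosyltransferase gene GALT9, had 532, 730, 280 and 202 RPM. The ppt-miR537a sequence had 329, 522, 317 and 314 RPM, with control *C. grandis* above the other 3 libraries. None of these 5 sequences was called between the species (0 of 5), against 31.5% of all loci tested (110 of 349).

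**Figure D2:**
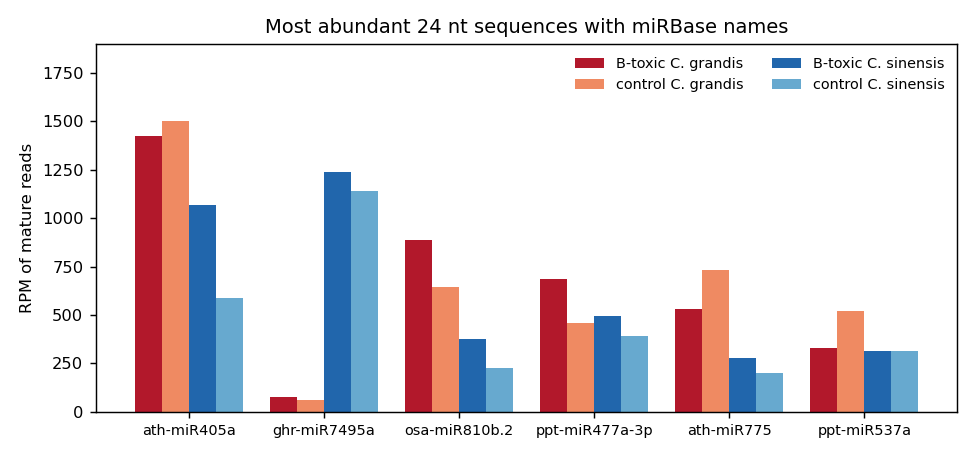
RPM of mature reads of the 6 most abundant sequences in the 4 libraries (red shades, *C. grandis*; blue shades, *C. sinensis*; 1 library per bar, no error bar). The ghr-miR7495a sequence stands at 76.8 and 58.8 RPM in *C. grandis* and at 1237 and 1140 RPM in *C. sinensis*.

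In their first base the members lay closer to unnamed 24 nt loci than to conserved 21 nt miRNAs. Of the distinct member sequences, 53.5% (69 of 129) started with A and 27.1% with U. Of the unnamed 24 nt sequences, 51.4% started with A, and of the conserved 21 nt sequences 20.0% started with A and 65.0% with U. By reads, A stood first in 63.6%, 61.0%, 51.2% and 51.5% of member reads in B-toxic *C. grandis*, control *C. grandis*, B-toxic *C. sinensis* and control *C. sinensis*. The share starting with G was 15.0%, 14.0%, 22.9% and 25.8%, and in *C. sinensis* much of it was ghr-miR7495a. The last base was U in 45.0% and G in 31.0% of the member sequences. Median GC content was 41.7% in the members, 41.7% in unnamed 24 nt sequences and 47.6% in conserved 21 nt sequences.

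In the hairpin predicted by RNAfold from each deposited precursor of 108 to 115 nt, a median of 75% of the mature bases of the members were paired. The median was also 75% at unnamed 24 nt loci and 90.5% at conserved 21 nt loci. At least 80% of the mature bases were paired at 47 member loci (29.2%), at 35.8% of unnamed 24 nt loci and at 71.2% of conserved 21 nt loci. The median minimum free energy was -28.1 kcal/mol at the members, -29.4 kcal/mol at unnamed 24 nt loci and -39.6 kcal/mol at conserved 21 nt loci. The mature sequence lay on the 5′ side of the precursor at 81 member loci and on the 3′ side at 80. The ghr-miR7495a precursor, with 95.8% of the mature bases paired and -76.0 kcal/mol, was among the most stable.

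**Figure D3:**
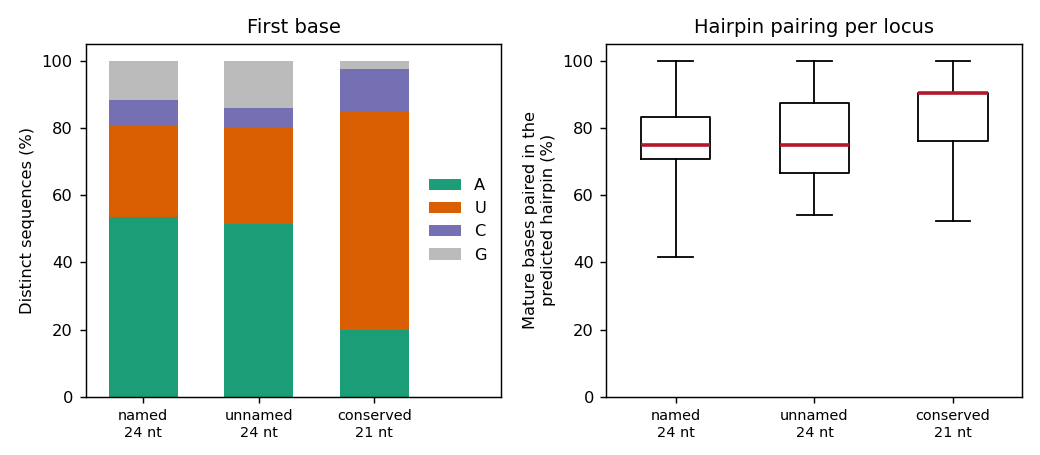
Left, share of distinct sequences (%) by first base in named 24 nt, unnamed 24 nt and conserved 21 nt loci. Right, mature bases paired in the predicted hairpin (%) per locus, as boxes from the lower to the upper quartile with the median in red and whiskers to the lowest and highest locus. The medians are 75%, 75% and 90.5%.

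Members also had reads beyond the mature sequence on their precursor at a smaller share of loci, though not by share of reads. Such reads, which include any from the other arm, were present at 100 of the 161 loci (62.1%). They were present at 92.6% of unnamed 24 nt and 84.6% of conserved 21 nt loci. Among loci with at least 10 mature reads the shares were 55.7% (59 of 106), 90.9% and 84.4%. In total 899 of 13974 member precursor reads lay beyond the mature sequence (6.43%). This share of reads was higher than at unnamed 24 nt (3.19%) and conserved 21 nt loci (4.93%). The gma-miR6299 precursor had 191 such reads beside 43 mature reads, and the bdi-miR7711-3p.4 precursor had 267. These counts are sums over the 4 libraries, and differences between the classes were described and not tested.

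The B-toxic and control libraries of *C. grandis* differed at few of the named 24 nt loci, which had a median of 17 reads, against 38 over all loci. The reads of every locus were set against the remaining mature reads with Fisher's exact test (two-sided), and a locus was called where the Benjamini-Hochberg FDR was under 0.01 and the ratio reached 2. Of 149 members with a read, 6 were called (4.03%), at 5 distinct sequences, against 7.05% of all loci tested (45 of 638). Of these, 3 loci were higher under B-toxicity, against 3.76% of all loci, and 3 were lower, against 3.29%. The called sequences are shown here.
ath-miR863-5p, higher: aUAUGUCUcaccgugaaaugucuu
mtr-miR5559-5p, higher, 2 loci: uACUUGGUgaaagaugaggagugu
lja-miR7528, lower: uCGAAAUGugaguagaauagacgu
gma-miR5785, lower: aAGUGUUGuagcacguuugauacu
osa-miR5156, lower: uGCCUGUAugauuggagauaugug

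In *Arabidopsis* miR863 acts on receptor-like pseudokinase genes and on SERRATE during bacterial infection. What the 5p strand named here acts on was not tested. The ath-miR863-5p sequence had 34 reads (104 RPM) in B-toxic and 14 (37.4 RPM) in control *C. grandis*. The log2 ratio was 1.48 (95% interval 0.54 to 2.49, FDR 0.00483). It had 10 and 9 reads in B-toxic and control *C. sinensis*. The mtr-miR5559-5p sequence had 29 reads (89.1 RPM) in B-toxic and 10 (26.7 RPM) in control *C. grandis*, with the same counts at both of its loci, and the log2 ratio was 1.74 (0.66 to 2.94, FDR 0.00384). It had 5 and 7 reads in B-toxic and control *C. sinensis*. Both sequences were higher in the B-toxic *C. grandis* library than in the other 3.

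The lja-miR7528 sequence had 38 reads (117 RPM) in B-toxic and 98 (262 RPM) in control *C. grandis*, and its log2 ratio was -1.17 (-1.75 to -0.61, FDR 0.000147). The gma-miR5785 sequence had 33 reads (101 RPM) in B-toxic and 87 (233 RPM) in control *C. grandis*, with -1.20 as the log2 ratio (-1.82 to -0.60, FDR 0.000222). It had 131 and 133 RPM in B-toxic and control *C. sinensis*, between its values in *C. grandis*. The osa-miR5156 sequence had 0 reads in B-toxic and 11 in control *C. grandis* and was at least 3.19-fold lower against the limit of 3 reads in that library (FDR 0.00753). It had 0 reads in both *C. sinensis* libraries, so its reads came from 1 of the 4 libraries.

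The calls were close to the threshold and rested on the absence of spread beyond counting. With edgeR's exact test and an assumed coefficient of variation of 0.2 between replicates, 0 members were called in *C. grandis*, against 1.57% of all loci. With clean reads as the scale the 3 lower loci were no longer called, which left 3 of 149 members (2.01%), against 6.43% of all loci. With DESeq2's size factors osa-miR5156 was not called (FDR 0.0201). TMM scaling gave 8 of 149 members (5.37%), against 7.37% of all loci. Among loci with at least 10 reads the shares were close, with 8 of 79 members called (10.1%), against 11.1% of all loci (48 of 431). The near copy of lja-miR7528 under the same name, with other bases at positions 14, 15 and 17 (A14G, G15A, A17G), had, at 1 of its loci, 42, 66, 27 and 22 reads in B-toxic *C. grandis*, control *C. grandis*, B-toxic *C. sinensis* and control *C. sinensis*, and was not called.

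In *C. sinensis*, 1 of 149 members was called (0.671%), against 1.88% of all loci tested (12 of 640) and 1.41% called higher. This was ath-miR823, a name that in *Arabidopsis* belongs to the regulator of the DNA methyltransferase gene CMT3.
ath-miR823: cGGGUGGUccccuggacacaagug

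It had 39 reads (160 RPM) in B-toxic and 20 (57.7 RPM) in control *C. sinensis*, a log2 ratio of 1.47 (95% interval 0.66 to 2.33, Fisher's exact test, FDR 0.00219). It had 4 reads in each *C. grandis* library, 12.3 RPM in the B-toxic and 10.7 RPM in the control one. With DESeq2's size factors as the scale its FDR was 0.0105, and with an assumed coefficient of variation of 0.2 it was 0.587. No member was called lower (0 of 149), against 0.469% of all loci.

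Without the limit on the ratio, 11 of 149 members passed the FDR in *C. grandis* (7.38%), against 17.6% of all loci (112 of 638), and of these 5 were higher and 6 lower. In *C. sinensis* 4 of 149 passed (2.68%), against 8.91% of all loci (57 of 640), and these 4 were higher in the B-toxic library. The ath-miR405a sequence passed in this way in *C. sinensis*, with 1069 RPM in B-toxic and 586 RPM in control leaves (log2 ratio 0.87, 0.60 to 1.14, FDR 3.29e-09). So did lja-miR7528, with 436 and 239 RPM in B-toxic and control *C. sinensis* (0.86, 0.44 to 1.30, FDR 0.000619), and osa-miR810b.2 (0.75, FDR 0.00898).

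Over 68 members with at least 10 reads in the pair of libraries and reads in each, the median log2 ratio of B-toxic over control *C. sinensis* was 0.42, with 56 above 0. It was 0.25 over all 372 such loci, with 234 above 0, 0.60 over unnamed 24 nt loci and -0.30 over conserved 21 nt loci. With TMM scaling the members' median was 0.27, with 49 above 0, and that of all loci 0.10, with 207 above 0. In *C. grandis* the members' median was -0.12 over 78 loci, beside -0.09 over all 428. Other scales turned both *C. grandis* medians round, to 0.02 and 0.06 with DESeq2's size factors and to 0.13 and 0.16 with clean reads.

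**Figure D4:**
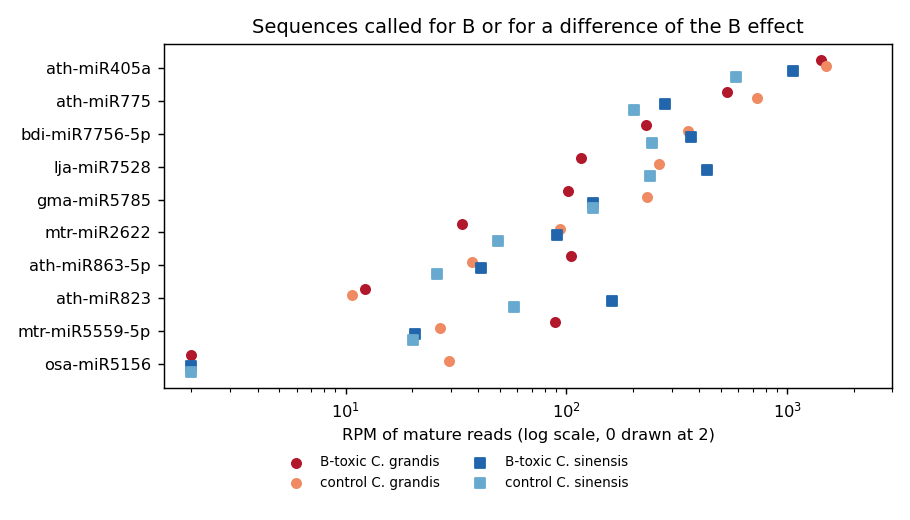
RPM of mature reads (log axis, 0 drawn at 2) in the 4 libraries for the 10 sequences called for B within a species or for B ratios that differ between them. Circles are *C. grandis* and squares *C. sinensis*, with B-toxic in the darker shade. The ath-miR863-5p and mtr-miR5559-5p circles of B-toxic *C. grandis*, at 104 and 89.1 RPM, lie right of their other points.

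A call in 1 species and not in the other does not show a difference between them, so the B-toxic to control ratios of the species were set against each other by an exact test of equality, conditional on the totals. Of 137 members with reads in both species, 6 loci were called at an FDR below 0.01 (4.38%), at 5 distinct sequences, against 13.3% of all loci tested (77 of 579). All 6 had the lower ratio in *C. grandis*, so that 4.38% of the members were called in this direction, against 7.94% of all loci (46 of 579). The sequences not yet shown were those of bdi-miR7756-5p and, above, mtr-miR2622.
bdi-miR7756-5p: aAAUGCAAguggaguauggacauc

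The lja-miR7528 sequence had log2 ratios of -1.17 in *C. grandis* and 0.86 in *C. sinensis* (FDR of the difference 4.77e-08). Its ratios passed the FDR in opposite directions in the species. The ath-miR405a sequence had -0.08 in *C. grandis* and 0.87 in *C. sinensis* (FDR 1.05e-07). The bdi-miR7756-5p sequence had 75 and 133 reads in B-toxic and control *C. grandis* and 89 and 85 in B-toxic and control *C. sinensis*, ratios of -0.63 and 0.58 (FDR 0.000768). The mtr-miR2622 sequence at 2 loci had 11 and 35 reads in B-toxic and control *C. grandis* and 22 and 17 in B-toxic and control *C. sinensis*, ratios of -1.47 and 0.88 (FDR 0.0056). The ath-miR775 sequence had 173 and 273 reads in B-toxic and control *C. grandis* and 68 and 70 in B-toxic and control *C. sinensis*, ratios of -0.46 and 0.47 (FDR 0.0098). For mtr-miR2622 and ath-miR775 the call was lost with TMM scaling (FDR 0.0138 and 0.0464), and with clean reads as the scale 2 of 137 members were called (1.46%), against 9.5% of all loci.

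The B response common to both species was tested in edgeR by quasi-likelihood, with treatment and species as terms, TMM scaling, edgeR's filter on low counts and 1 residual degree of freedom. It called 0 of 58 members that passed the filter at an FDR below 0.05, against 0.0% of all 349 loci, with 0 members at an unadjusted p below 0.05, against 2.01% of all loci. DESeq2 also called 0 members, against 0.0% of all loci.

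The species were compared in the same edgeR model, in which 11 of the 58 members that passed the filter were called between *C. grandis* and *C. sinensis* at an FDR below 0.05 (19.0%), against 31.5% of all 349 loci tested (110). Of these, 3 were higher in *C. grandis* and 8 lower, each against 15.8% of all loci. The filter left out 103 members, among them 23 of the 24 with reads in 1 species. A locus that passed the filter through 1 species alone, with neither library of the other at the filter's level, was taken into the test where it was high, so the values of such loci are a description. This held for 9 of the 11, namely gma-miR6299, gma-miR482a-5p, aly-miR3439-3p, bdi-miR7766-3p, ahy-miR3509-3p, ath-miR823 and cre-miR912 through *C. sinensis* and mtr-miR4414a-3p and ptc-miR6479 through *C. grandis*. The 7 members that passed through *C. sinensis* alone were all called, against 25 of 26 among all loci. Of the 10 that passed through *C. grandis* alone, 2 were called, against 21 of 36 among all loci. For these 9 the values are given below without their FDR. Of the 41 members with a library at that level in each species, 2 were called, against 64 of 287 among all loci. Of these 2, bdi-miR7711-5p.4 had only 1 *C. sinensis* library at that level, so its *C. sinensis* libraries alone would not have passed the filter. Its values are therefore also a description and are given without FDR. The sequences are shown in the order of their log2 ratio of *C. grandis* over *C. sinensis*, those lower in *C. grandis* first.
gma-miR6299: aUUUAAAAcauguagcaucuuuga
gma-miR482a-5p: aGAAUUUGaauuggauaaaacucu
ghr-miR7495a: gUACUUUAgccgugagggggacgu
aly-miR3439-3p: aCUGAUUUgauugaacucgugugc
bdi-miR7766-3p: uGAGGCUGuugcaaguagauggug
ahy-miR3509-3p: aUCUAACGgcugaaugcaacugug
ath-miR823: cGGGUGGUccccuggacacaagug
cre-miR912: aGGAUUGAuacaauugugauuaca
mtr-miR4414a-3p: aUCCAACGguuguagaagaaucau
bdi-miR7711-5p.4: aCUGAAUUcuuuaaggacuguuug
ptc-miR6479: gUCAAUGAcaauuggcaggacgug

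The gma-miR6299 sequence had 0 and 0 reads in B-toxic and control *C. grandis* and 16 and 27 in B-toxic and control *C. sinensis*. It was at least 17.0-fold lower in *C. grandis*, against a limit of 3 reads over both of its libraries. The gma-miR482a-5p sequence was named after a family that acts on disease resistance genes of the NBS-LRR class. It had 1 and 0 reads in *C. grandis* and 42 and 32 in *C. sinensis*. Its log2 ratio of summed reads was -6.46, with a counting interval of -11.8 to -3.93. The aly-miR3439-3p sequence had 0 and 3 reads in *C. grandis* and 19 and 18 in *C. sinensis*. Its log2 ratio of summed reads was -3.87 (-6.21 to -2.21). These 3 passed the filter through their *C. sinensis* libraries.

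The ghr-miR7495a sequence had 76.8 and 58.8 RPM in B-toxic and control *C. grandis* and 1237 and 1140 RPM in B-toxic and control *C. sinensis*, a log2 ratio of -4.55 ± 0.38 (SE, edgeR FDR 0.000515). It was the most abundant member called. The bdi-miR7766-3p sequence had 9.22 and 16.0 RPM in *C. grandis* and 169 and 98.1 RPM in *C. sinensis* (log2 ratio -3.70). The second ahy-miR3509-3p sequence had 18.4 and 8.02 RPM in *C. grandis* and 144 and 113 RPM in *C. sinensis* (log2 ratio -3.70). Its near copy, the first ahy-miR3509-3p sequence, had 20, 37, 12 and 7 reads in B-toxic *C. grandis*, control *C. grandis*, B-toxic *C. sinensis* and control *C. sinensis*. The near copies thus lay on opposite sides.

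The ath-miR823 sequence, also called for B in *C. sinensis*, had 12.3 and 10.7 RPM in B-toxic and control *C. grandis*. It had 160 and 57.7 RPM in B-toxic and control *C. sinensis*, and its log2 ratio was -3.48. The cre-miR912 sequence had 9.22 and 5.35 RPM in *C. grandis* and 45.2 and 43.3 RPM in *C. sinensis* (log2 ratio -2.98). The groups did not overlap in either.

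Of the members higher in *C. grandis*, bdi-miR7711-5p.4 had 184 and 152 RPM in B-toxic and control *C. grandis* and 45.2 and 8.66 RPM in B-toxic and control *C. sinensis* (log2 ratio 2.45). The mtr-miR4414a-3p sequence of the list above had 15 and 26 reads in *C. grandis* and 2 and 4 in *C. sinensis* (log2 ratio 2.08). The ptc-miR6479 sequence, named after poplar, had 12 and 13 reads in *C. grandis* and 1 and 1 in *C. sinensis* (log2 ratio 2.85). Its log2 ratio of summed reads was 3.40 (1.39 to 6.52). These 3 calls were lost with DESeq2 and without the control *C. sinensis* library, and so was that of cre-miR912. The calls of ptc-miR6479 and mtr-miR4414a-3p were also lost without B-toxic *C. sinensis*, and that of mtr-miR4414a-3p without control *C. grandis*, where ptc-miR6479 did not pass the filter and had no value.

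The number of calls depended on the libraries and the scale. Without B-toxic *C. grandis* 21 of 73 members were called (28.8%), against 32.8% of all loci, and without control *C. sinensis* 8 of 73 (11.0%), against 22.9%. With library totals in place of TMM 19 of 58 were called (32.8%), against 37% of all loci (129 of 349). Of these, 11 were higher and 8 lower in *C. grandis*. With each sequence counted once 16 of 50 were called (32.0%), against 32.4% of all sequences (88 of 272), so the shares were close. The median log2 ratio over all 489 loci with at least 10 reads and reads in both species was 0.50 with totals and 0.09 with TMM, and the members' median was 0.83 and 0.46 over 101 loci. None of the 11 called members changed direction in the settings that gave it a value (0 of 11). Most of them entered the test where they were high, so this is a description and no separate support.

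Of the 161 members, 12 had reads in *C. grandis* alone and 12 in *C. sinensis* alone. Most had few reads, and 5 reached 10 reads, namely gma-miR6299, osa-miR5156 and the 3 shown here.
mtr-miR2630a: gGGUUUUGggucggaucuggacgg
lja-miR7531: cGUGUUUUcggaugguaucaugaa
mtr-miR5213-5p: cACGUGUGcugagaguagcugcuc

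The mtr-miR2630a sequence had 14 and 7 reads in B-toxic and control *C. grandis* and 0 in both *C. sinensis* libraries, at least 5.90-fold higher in *C. grandis* against a limit of 3 reads over both libraries. The lja-miR7531 sequence had 0 reads in both *C. grandis* libraries and 12 and 8 in B-toxic and control *C. sinensis*, at least 7.90-fold lower in *C. grandis*. The mtr-miR5213-5p sequence had 6 and 4 reads in B-toxic and control *C. grandis* and 0 in both *C. sinensis* libraries, at least 2.81-fold higher in *C. grandis*. These 3 did not pass edgeR's filter, and only alternative runs tested them. These sequences were picked for having 0 reads in the other species, so a species test on the same counts adds no separate evidence. Their values are a description. The reads were matched to the genome of *C. clementina*, which is neither of the species sampled, and the part of sequence differences from that genome in these values was not tested.

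**Figure D5:**
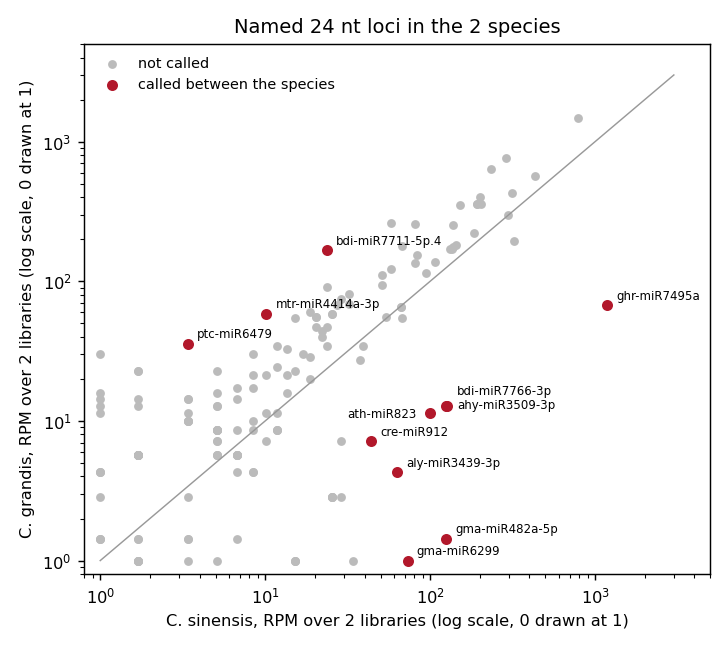
RPM over both libraries of *C. grandis* (vertical) against RPM over both libraries of *C. sinensis* (horizontal) for the 161 loci, on log axes with 0 drawn at 1. The 11 loci called by edgeR are red and named, with 8 below the line of equality and 3 above it.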

How the data were processed

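The authors made 1 small RNA library per condition from the mixed RNA of 5 replicates, removed adaptors, low-quality reads and other RNA classes, searched miRBase 21 and predicted precursors on the *C. clementina* genome (version 1.0) with MTide. The deposited values are raw read counts of each mature sequence per library, beside a precursor's read total. For MTide's version and its assignment of reads with several matches, nothing was stated in the methods or labels. Groups came from the sample labels, and miRNA counts hold no marker genes by which the leaf label could be checked. The labels and the methods differ on the age of the seedlings, which does not touch the groups. Genome positions of the loci and neighbouring genes are not analysed here.

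From the counts, RPM, exact 95% intervals and Fisher's exact tests were computed with scipy 1.17.1, and the species and common B tests with edgeR 4.0.16 in R 4.3.3. All tests were fitted and adjusted over the whole table. Hairpins were folded with ViennaRNA 2.7.2 at its default temperature. Alternatives were other scalings (clean reads, TMM, DESeq2 1.42.0 size factors), each sequence counted once, other filters, assumed coefficients of variation of 0.2 and 0.4, DESeq2 for edgeR, and each library left out. The tests were checked on simulated counts. There, strong changes of the most abundant loci shifted the library totals and gave false calls in Fisher's test at unchanged loci.

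The sequences named are all called members, the 6 most abundant, those with at least 10 reads in 1 species and 0 in the other, those at 3 or more loci and names with more than 1 sequence. The members and lists were chosen with earlier results of these data known.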

Additional observations from a re-analysis of the deposited data

Results flagged for a closer look

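At 6 loci the B effect differed between the species by the exact conditional test, each with the lower B-toxic to control ratio in *C. grandis*. The FDR was 4.77e-08 for lja-miR7528, 1.05e-07 for ath-miR405a, 0.000768 for bdi-miR7756-5p, 0.0056 for mtr-miR2622 at each of 2 loci with the same reads, and 0.0098 for ath-miR775. Each rests on 1 library per condition.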

How the results depend on the processing

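Depth and design limit these results. The median member had 17 reads over 4 libraries, and no condition had a replicate, so the spread between plants cannot be told apart from the effect of B. For B in *C. grandis*, 6 of 149 members were called (4.03%), against 7.05% of all loci. Clean reads as the scale gave 3 (2.01%, against 6.43%) and TMM 8 (5.37%, against 7.37%). No limit on the ratio gave 11 (7.38%, against 17.6%). Among loci with at least 10 reads, 8 of 79 members were called (10.1%), against 11.1%. Assumed coefficients of variation of 0.2 and 0.4 gave 0 each, against 1.57% and 0.47%. For B in *C. sinensis*, 1 of 149 members was called (0.671%), against 1.88% of all loci. DESeq2 size factors gave 0 (against 1.88%) and no ratio limit 4 (2.68%, against 8.91%). The assumed variations gave 0 each, against 0.938% and 0.0%. For the difference of the B effect, 6 of 137 members were called (4.38%), against 13.3% of all loci. TMM gave 3 (2.19%, against 10.7%) and clean reads 2 (1.46%, against 9.5%). Between the species, 11 of 58 members were called (19.0%), against 110 of 349 over all loci. Without TMM 19 of 58 were called, against 129 of 349. Without the filter 25 of 161 were called (6 higher and 19 lower), against 158 of 699. This was a lower share of the members (15.5%, against 22.6% of all loci). That run also tested 23 members with reads in 1 species that the filter had left out. DESeq2 called 8 of 81 (9.88%), against 91 of 428. With each sequence counted once 16 of 50 were called (7 higher and 9 lower), against 88 of 272 over all sequences. Leaving out 1 library at a time gave 8 to 21 (89 to 128 over all loci), with 7 to 11 of the 11 still called. At unadjusted p below 0.05, 32 of 149 members passed for B in *C. grandis* (191 of 638 over all loci), 16 of 149 in *C. sinensis* (136 of 640) and 17 of 58 between the species (136 of 349). For the common B response every setting run gave 0 members. Identity of same-name pairs was 100% at bases 2 to 8, 73.9% at bases 1 to 7 and 8.70% at bases 9 to 15. Reads were 13075 over loci and 11136 with each sequence counted once. By locus 50.3% started with A, by sequence 53.5% and by reads 58.0%. Folding at 25 °C left the median pairing at 75%. No called member changed direction in the settings that gave it a value, while the median B ratio in *C. grandis* turned with DESeq2's size factors (-0.12 to 0.02) and clean reads (0.13). No paired analysis was possible because no condition had more than 1 library and the labels give no replicate numbers, though the edgeR model holds species as a term.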
